A study of Mus musculus with 24 samples.

Results

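The comparison described here set 3 libraries of CD4 T cells from Atm-/- mice that had received a B-cell lymphoma transplant against 3 libraries of CD4 T cells from Atm-/- mice with no transplant. These 6 libraries were chosen by their labels from 24 in 8 groups of 3, and all genes of the table were compared. In this series polyA RNA was sequenced from T lymphocytes of the spleen of C57BL/6N mice, which were Atmwt/wt (called WT) or Atm-/- (called KO), with or without the transplant, as CD4 and CD8 libraries. Every mouse behind the 6 libraries was Atm-/-, so controls carry the knockout too, and the groups differ by label in the transplant. Each of the 6 libraries is a pool of 2 mice, which gives 6 control and 6 lymphoma mice. Neither the allele nor the lymphoma line, dose, time after transplant or age of the mice is stated in the labels. Spleen T cells were isolated with an EasySep kit, and the labels used here do not say how CD4 and CD8 cells were then parted.

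Atm is a protein kinase that is activated at broken DNA and passes the signal to p53, to cell cycle checkpoints and to repair. In T cells it also guards the breaks made when receptor genes are rearranged, and mice without it have fewer mature T cells and often develop thymic lymphoma. Type I interferons signal from their receptor to the nucleus, where the interferon-stimulated response element lies before antiviral genes such as the oligoadenylate synthetases, the Ifit family and the Mx GTPases.

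Total counts of the 6 libraries ran from 7920448 to 10051550, and 16270 to 16628 genes had a count. Levels are given as CPM (counts scaled to a common library size), differences on the log2 scale as lymphoma against control with the standard error after ±, and n = 3 libraries per group. Adjusted p-values come from edgeR's quasi-likelihood test over the 12808 genes tested. The labels do not say that pools were separate experiments, so p-values measure the spread between the libraries in the fit. That fit also held the CD4 WT libraries, so their spread enters these p-values. The CD4 WT controls were pools of 3, 2 and 2 mice, and each CD4 WT lymphoma library came from 1 mouse. Cd4 was at 121.3, 109 and 122 in controls and at 79.7, 98.5 and 65.9 with lymphoma. Cd8a was at 9.38, 6.62 and 7.55 and at 4.72, 23.6 and 4.56, so Cd8a stood highest in KO lymphoma 2. Atm RNA was at 81.7, 87.2 and 83.7 in controls and at 71.8, 104.6 and 24.9 with lymphoma (-0.33 ± 0.37, adjusted p = 0.718). The 3 WT controls had 196, 198 and 155 Atm CPM. The 3′ tags that remain in KO libraries need not come from a working transcript, and the labels do not say which part of the gene was disrupted. The lowest Atm value was that of KO lymphoma 3, and without that library the difference was 0.05.

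KO lymphoma 3 stood apart from the other 5 libraries before any test. The first principal component, with 47.5% of the variance, placed it at 77.8 and the other 5 between -25.4 and 12.9. Against the control mean, 1292 genes were more than 1 log2 unit higher and 1271 lower in KO lymphoma 3, compared with 807 and 292 in KO lymphoma 1 and 329 and 540 in KO lymphoma 2. Y-linked RNA (4 genes summed) was high only in replicate 3 of each KO group, at 68.4 CPM in controls and 58.6 with lymphoma. It was 2.24 to 5.04 in the other 4 KO libraries, so it did not separate the KO groups. In CD4 WT libraries it was at 80.1, 246 and 143 in controls and at 6.93, 3.33 and 136 with lymphoma. Its part in the WT comparison and in the interaction was not tested. Mice with a B identifier made up 0, 2 and 2 of the 2 mice in the control pools and 1, 0 and 0 of 2 in the lymphoma pools. Their part in the results was not tested beyond a fit with that share as a covariate.

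Across all genes, no gene passed the adjusted threshold of 0.05, which makes the called share 0 of 12808 (0%). The smallest adjusted p was 0.0656, shared by 5 genes, and 29 genes were under 0.1. At an unadjusted p under 0.05 there were 1179 genes higher (9.21% of those tested) and 774 lower (6.04%), with a median difference over all genes of -0.01. The libraries of the 2 groups did not overlap in 1224 genes that were higher (9.56%) and 1245 that were lower (9.72%). DESeq2 called 343 genes (216 higher, 1.69%, and 127 lower, 0.992%) and limma voom with sample weights called 703 (447 higher, 3.49%, and 256 lower, 2%), of which 294 were shared. Leaving out KO lymphoma 2 gave 501 calls (340 higher, 2.6%, and 161 lower, 1.23%), and leaving out KO lymphoma 3 gave 18 (16 higher, 0.123%, and 2 lower, 0.0153%). Because no gene passed with all 6 libraries, the values below are given as levels and differences, and none is called a rise or a fall.

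Of the 15 genes with the smallest p among those higher with lymphoma, 5 were interferon targets by the lists used below (Ifi44, Ifi204, Cmpk2, Oasl2 and Oas1a). Nampt, the enzyme that makes the NAD precursor nicotinamide mononucleotide, was at 75.7, 81.2 and 89.1 CPM in controls and at 138.7, 138.4 and 138.8 with lymphoma (0.76 ± 0.11, adjusted p = 0.0656). Its 3 lymphoma libraries were within 1 CPM of each other and above every control. Ms4a6d, a membrane protein gene of myeloid cells, was at 12.2, 13.96 and 12.9 in controls and at 43.1, 39.2 and 41.3 with lymphoma (1.66 ± 0.25, adjusted p = 0.0656). Its neighbour in the family, Ms4a6c, was at 150.6, 142 and 138 and at 355, 264.5 and 292 (1.08 ± 0.17, adjusted p = 0.0656). Hp, which encodes the haemoglobin-binding acute phase protein haptoglobin, was at 11.04, 7.03 and 6.77 and at 66.6, 26.8 and 70.6 (2.72 ± 0.40, adjusted p = 0.0656). In all 3 genes every lymphoma library was above every control, and for Hp KO lymphoma 2 was well below the other lymphoma libraries. The 2 Ms4a6 genes are near relatives, so tags may be divided between them and their separate values are uncertain.

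Of the 15 genes named as higher by p, 14 also rose in CD4 WT lymphoma against WT control libraries, where 1.62% of genes rose. In CD8 KO libraries, where 1.39% of genes rose, 9 of them did. The WT test came from the same fit, with the same spread for each gene. The 15 were picked for a small p, no overlap and at least 5 CPM. The shares over all genes are thus not a like base for these counts. The number of CD8 calls, 276 with all libraries, changed when single libraries were left out. It was 0 without CD8 KO control 1 or control 3, and 5 without control 2. It was 9 without lymphoma 1, 50 without lymphoma 3 and 1861 without lymphoma 2. How many of these calls were among the 276 was not counted. The number of WT calls fell from 216 to between 31 and 103 when WT control 1, 2 or 3 or WT lymphoma 2 or 3 was left out. The exception in WT was Adgrg3, an adhesion receptor gene of neutrophils, at 4.59, 4.14 and 3.22 CPM in KO controls and 8.97, 9.25 and 13.7 in KO lymphoma libraries (1.41 ± 0.27, adjusted p = 0.0918), with a WT difference of 0.38 (adjusted p = 0.526). The others of the 15 were Ifi44, Ifi204, Mtus1, Cmpk2, Sord, Oasl2, Oas1a, Fpr2, Thbs1 and Cxcl10. Fpr2, a formyl peptide receptor of phagocytes, stood at 1.66, 2.07 and 2.997 in controls and 11.5, 5.04 and 13.8 with lymphoma (2.17 ± 0.41). Thbs1, which encodes the matrix and platelet protein thrombospondin 1, stood at 4.69, 4.03 and 2.78 and at 17.4, 9.35 and 11.6 (1.73 ± 0.33). Cxcl10, the interferon-induced ligand of CXCR3, stood at 6.35, 4.86 and 5.77 and at 17.9, 16.7 and 14.04 (1.52 ± 0.29).

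**Figure D1:**
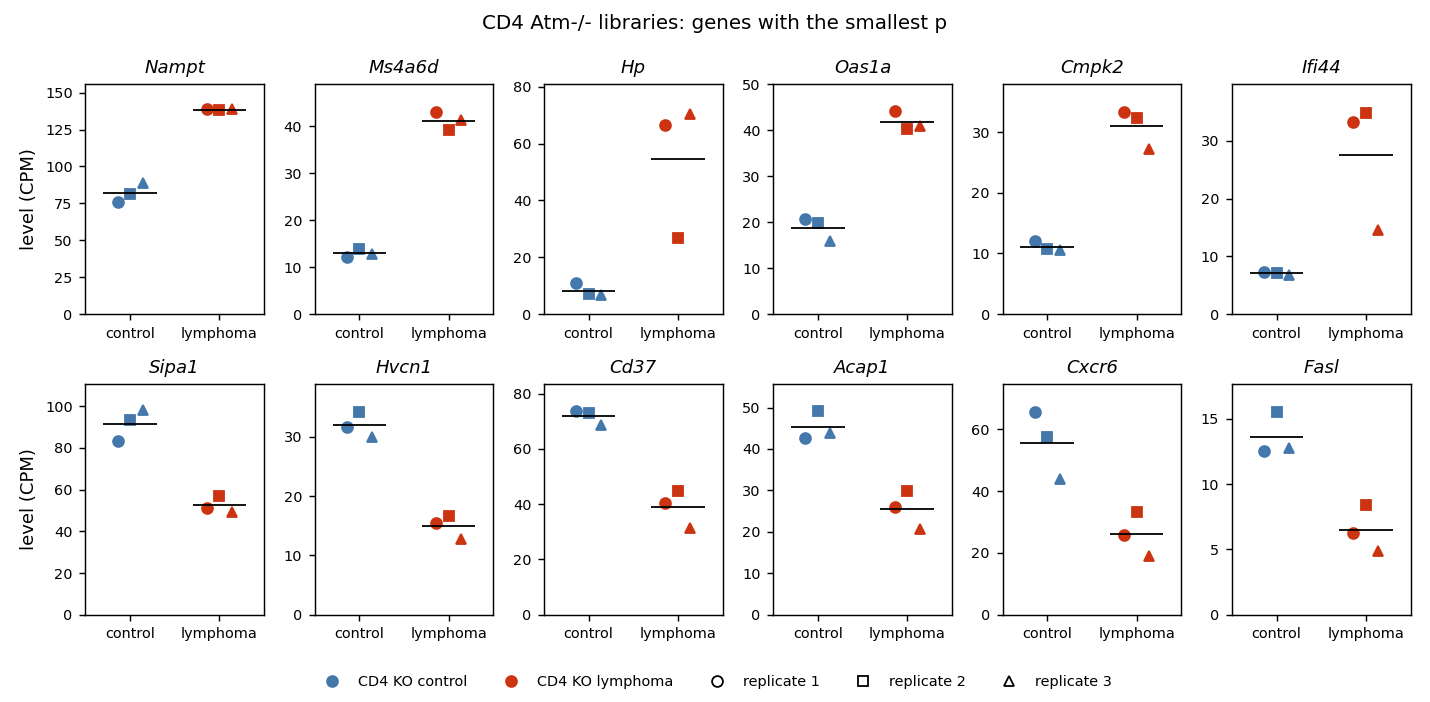
Level in CPM of 12 of the 30 genes with the smallest p in the 3 CD4 KO control and 3 CD4 KO lymphoma libraries; each point is 1 library, its shape the replicate number, and the black line the group mean. The top row is higher and the bottom row lower with lymphoma, no gene overlaps between groups, and for Ifi44 KO lymphoma 3 (14.5) is the lymphoma library nearest to the controls.

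The 15 genes with the smallest p among those lower with lymphoma included regulators of small GTPases, a chemokine receptor and a death ligand. Sipa1, which encodes a GTPase-activating protein for Rap1, a switch of integrin adhesion, was at 83.2, 93.6 and 98.0 CPM in controls and at 51.1, 56.96 and 49.4 with lymphoma (-0.80 ± 0.12, adjusted p = 0.0656). The highest lymphoma library was below the lowest control by more than the spread within either group. Acap1, a GTPase-activating protein of integrin recycling, was at 42.7, 49.1 and 43.8 and at 25.97, 29.95 and 20.6 (-0.83 ± 0.15, adjusted p = 0.0918). Cxcr6, the receptor for CXCL16, was at 65.5, 57.4 and 43.8 and at 25.9, 33.2 and 19.1 (-1.09 ± 0.21, adjusted p = 0.0988). Fasl, the death ligand of activated T and natural killer cells, was at 12.5, 15.5 and 12.8 and at 6.26, 8.41 and 4.91 (-1.05 ± 0.21, adjusted p = 0.106). Each of these had its lowest value in KO lymphoma 3 and its highest lymphoma value in KO lymphoma 2.

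Hvcn1, a voltage-gated proton channel that is abundant in B cells, was at 31.6, 34.2 and 29.97 CPM in controls and at 15.5, 16.6 and 12.7 with lymphoma (-1.09 ± 0.19, adjusted p = 0.0918). Cd37, a tetraspanin that is high on B cells, was at 73.7, 73.0 and 68.8 and at 40.3, 44.9 and 31.4 (-0.89 ± 0.16, adjusted p = 0.0918). Both genes are also expressed in B cells, whose marker levels are given below, and the part of B cell RNA in these values was not tested. The other 9 of the 15, all without overlap, were Bend5, Qrfp, Nbeal2, Rtn4rl1, Esyt1, Anxa6, Tnk2, Ptprcap and Leng8, with differences of -0.54 to -1.83 and adjusted p from 0.0918 to 0.11. Of the 15 genes named as lower, Cxcr6 alone fell in CD4 WT libraries (-0.96, adjusted p = 0.0428), where 0.0703% of genes fell. In CD8 KO libraries, where 0.791% of genes fell, Qrfp, Acap1, Anxa6 and Ptprcap fell. Whether these genes respond differently in KO and WT mice is a question for the interaction, in which no gene passed.

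Interferon targets were described next, as 4 lists of 75 tested genes. Of the 75, 71 had a positive difference and the median was 0.52. At an unadjusted p under 0.05, 34 were higher and 0 lower, and 28 were higher without overlap, beside the 9.21% and 9.56% of all genes given above. None passed over all genes in edgeR, while DESeq2 called 23 and limma voom 35, all higher. In CD4 WT libraries 34 of the 75 rose, with a median of 0.92, and in CD8 KO libraries 23 rose, with a median of 0.48.

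Sequences before the start are given for 7 interferon targets without overlap, all of which hold a match to the interferon-stimulated response element. Each is 60 bases around the match nearest the annotated start, from the RefSeq promoter on GRCm38.p6, 5′ to 3′ on the gene's strand, with matches to the motif (GAAA, any 2 bases, GAAA) on either strand in capitals.
Oas1a, chr5:120907526-120907585, minus strand: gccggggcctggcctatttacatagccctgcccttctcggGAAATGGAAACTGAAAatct
Oas1g, chr5:120887614-120887673, minus strand: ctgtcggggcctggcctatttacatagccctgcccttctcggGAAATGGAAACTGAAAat
Oas3, chr5:120777700-120777759, minus strand: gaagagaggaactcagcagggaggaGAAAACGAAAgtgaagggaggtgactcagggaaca
Ifit1, chr19:34640779-34640838, plus strand: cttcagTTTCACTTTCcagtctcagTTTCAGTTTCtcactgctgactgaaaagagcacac
Ifit3, chr19:34583382-34583441, plus strand: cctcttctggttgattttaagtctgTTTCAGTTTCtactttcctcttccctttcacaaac
Ifit3b, chr19:34607778-34607837, plus strand: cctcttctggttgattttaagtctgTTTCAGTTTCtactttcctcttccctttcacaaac
Bst2, chr8:71537562-71537621, minus strand: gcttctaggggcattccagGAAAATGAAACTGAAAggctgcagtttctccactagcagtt

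In Oas1a, Oas1g and Bst2 2 matches share bases, and Ifit1 holds 2 separate ones. Ifit3 and Ifit3b each have 2 matches in the 250 bases before the start, and only the nearest lies in the bases shown. A RefSeq promoter was matched by symbol for 55 of the 75 interferon targets, and 30 of these (54.5%) held the motif within 250 bases before the start, on either strand. The share was 3.58% over the 9459 tested genes with a promoter. Among the interferon targets that did not overlap, 9 of 19 held it (47.4%), and among the other 36 it was 21 (58.3%). A match is a description of letters and not a site of binding. S phase genes held it in 0 of 28 promoters. The windows of Cmpk2, Ifi44, Oasl2 and Xaf1 held no match to these letters. The 60 bases shown are identical in Ifit3 and Ifit3b, and 56 in a row are shared by Oas1a and Oas1g. These pairs are near copies, so the counting could divide tags between them and their separate values are uncertain.

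The oligoadenylate synthetases, which make the second messenger that activates RNase L, had a median difference of 1.02 over 8 genes, with 6 higher at an unadjusted p under 0.05 and 5 without overlap. Oas1a was at 20.6, 19.9 and 15.9 CPM in controls and at 44.1, 40.4 and 40.8 with lymphoma (1.15 ± 0.22, adjusted p = 0.0918). Oasl2 was at 9.77, 7.65 and 9.21 and at 25.1, 27.95 and 16.5 (1.39 ± 0.26, adjusted p = 0.0918). All lymphoma libraries were above all controls in both genes, and in Oas1a KO lymphoma 3 was as high as KO lymphoma 2. Oas3 was at 16.8, 19.3 and 15.2 and at 34.4, 41.4 and 19.8 (0.90 ± 0.27, adjusted p = 0.176) and KO lymphoma 3 lay just above the highest control. Oas1g, at 1.97 to 2.74 in controls and 5.38 to 9.67 with lymphoma, was also without overlap.

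Among the Ifit family, viperin and Cmpk2, 4 of 8 genes were higher without overlap (median 0.74). Cmpk2, a mitochondrial nucleotide kinase induced by interferon, was at 12.1, 10.7 and 10.5 CPM in controls and at 33.4, 32.4 and 27.2 with lymphoma (1.48 ± 0.27, adjusted p = 0.0918). Ifit3, an antiviral protein of the family, was at 16.4, 16.9 and 16.1 and at 51.9, 74.8 and 25.6 (1.63 ± 0.36, adjusted p = 0.13). Ifit1 was at 32.9, 36.8 and 29.6 and at 69.1, 82.1 and 42.4 (0.96 ± 0.24, adjusted p = 0.158). In both Ifit genes KO lymphoma 3 was the lowest of the lymphoma libraries and still above the controls. Rsad2, which encodes viperin, went the other way in the mean and overlapped, at 86.2, 606 and 262 in controls and 287, 303.5 and 142 with lymphoma (-0.38 ± 0.60, adjusted p = 0.802). Its highest value was that of KO control 2, and without that library its difference was 0.47.

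The interferon-induced GTPases differed between the lymphoma libraries. Of 18 genes (median 0.43), 2 were higher without overlap, near the 9.56% of all genes. Above all controls were 16 in KO lymphoma 1, 18 in KO lymphoma 2 and 2 in KO lymphoma 3, where 12 were below all controls. Of all genes, 33.5%, 32% and 37% were above all controls in those libraries, and 41.9% were below in KO lymphoma 3. Without KO lymphoma 2 the median was 0.09. The 2 above all controls in KO lymphoma 3 were Mx1 and Mx2, which encode antiviral GTPases. Mx1 was at 4.20, 2.59 and 3.33 CPM in controls and at 9.56, 13.4 and 5.97 with lymphoma (1.51 ± 0.35, adjusted p = 0.136). Mx2 was at 5.86, 4.34 and 4.33 and at 13.7, 15.4 and 6.90 (1.31 ± 0.36, adjusted p = 0.165). Gbp6, a guanylate-binding protein gene, was at 88.8, 97.2 and 99.7 and at 142, 251 and 54.6 (0.65 ± 0.39, adjusted p = 0.457), so KO lymphoma 3 was below every control while the other lymphoma libraries were above.

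Of the 41 other interferon targets, 20 were higher at an unadjusted p under 0.05 and 17 without overlap (median 0.55). Ifi44, an interferon-induced protein of little known function, was at 7.33, 7.03 and 6.77 CPM in controls and at 33.3, 34.9 and 14.5 with lymphoma (1.97 ± 0.31, adjusted p = 0.0788). Ifi204, a nucleic acid sensor of the p200 family, was at 12.2, 16.03 and 13.7 and at 61.4, 33.3 and 29.5 (1.57 ± 0.28, adjusted p = 0.0918). Xaf1, an antagonist of the apoptosis inhibitor XIAP, was at 35.7, 49.4 and 41.3 and at 87.1, 63.2 and 112 (1.05 ± 0.21, adjusted p = 0.106). Bst2, which tethers budding virus to the cell, was at 74.2, 50.05 and 59.8 and at 108, 108 and 107 (0.81 ± 0.24, adjusted p = 0.175). In Xaf1 KO lymphoma 3 was the highest of all 6 libraries, and in Bst2 the 3 lymphoma libraries were level, unlike in Ifi44.

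Among 16 genes of interferon signalling and its transcription factors, 1 was higher without overlap (Irf7) and 2 were lower, and the list median was -0.07. Of all genes, 9.56% were higher and 9.72% lower without overlap. Irf7, the factor that amplifies type I interferon, was at 47.8, 56.3 and 48.2 CPM in controls and at 121, 161 and 70.4 with lymphoma (1.21 ± 0.26, adjusted p = 0.116). Summed over the 75 targets, controls had 5522, 6308 and 5667 CPM and lymphoma libraries 8384, 10330 and 4798. Of the 75, 64 were above all controls in KO lymphoma 1, 73 in KO lymphoma 2 and 29 in KO lymphoma 3, beside 33.5%, 32% and 37% of all genes in those libraries. In KO lymphoma 3 another 36 (48%) were below all controls, where 41.9% of all genes were, so that share was near the background. Without KO lymphoma 3, 9 interferon targets were called, and without KO lymphoma 2, 10 were. The genes with the largest called differences without KO lymphoma 3 were Ifi44 (2.25 ± 0.22, adjusted p = 0.00295), Ifit3 (1.92 ± 0.27, adjusted p = 0.035) and Ifi204 (1.74 ± 0.28, adjusted p = 0.0374).

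**Figure D2:**
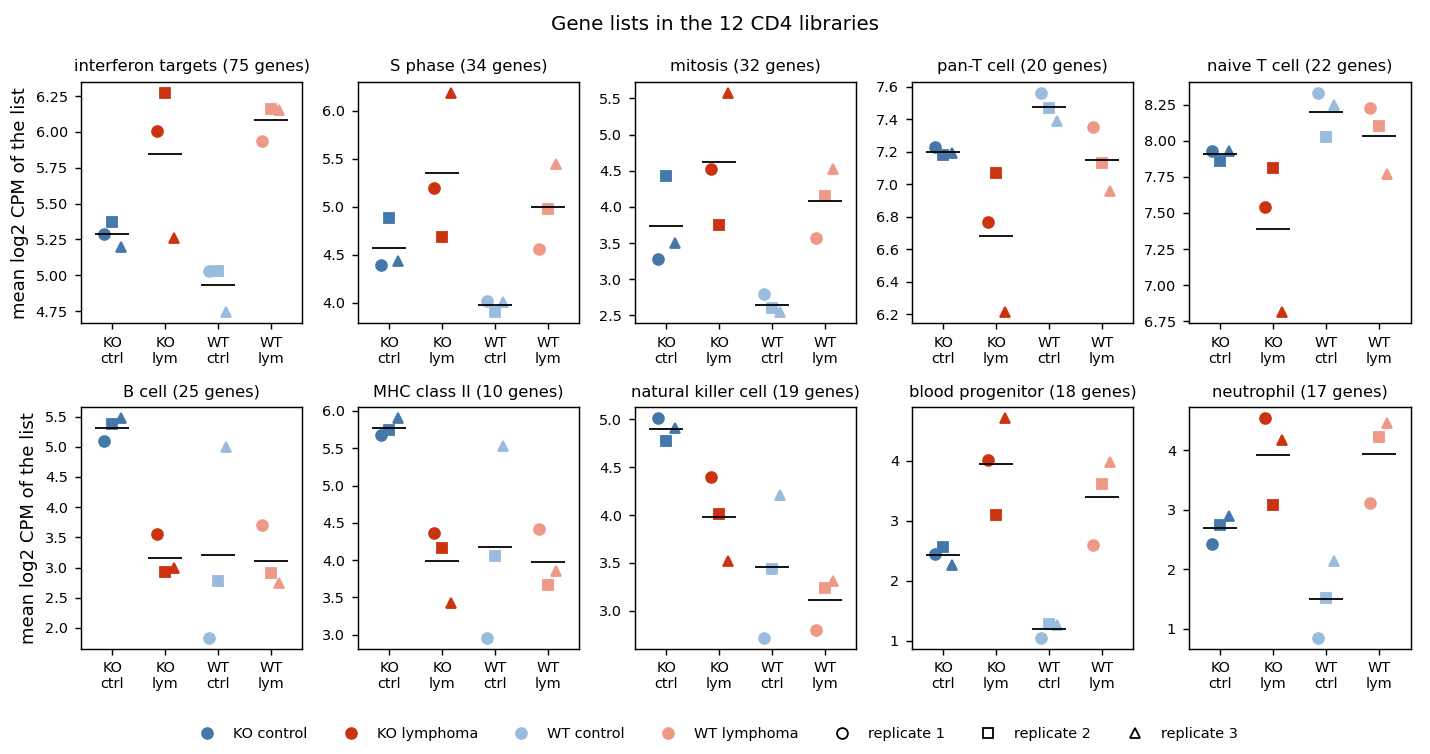
Mean log2 CPM of the tested members of 10 gene lists in each of the 12 CD4 libraries, by group (KO or WT, ctrl for control and lym for lymphoma), each axis on its own scale; points are libraries, shapes the replicate numbers and black lines group means. KO lymphoma 3 lies among the KO controls for interferon targets (5.26) and is the highest library for S phase (6.18) and mitosis (5.57) and the lowest for pan-T cell genes (6.21).

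Genes of DNA replication were above all controls mainly in KO lymphoma 1 (29 of 34) and KO lymphoma 3 (33). The share of all genes was 33.5% and 37% there. In KO lymphoma 2, 12 (35.3%) were above, beside 32% of all genes, so that share was near the background. Of 34 S phase genes, 21 were higher at an unadjusted p under 0.05 (9.21% of all genes). Without overlap 11 were higher (9.56% of all genes), and the median was 0.94. Stmn1, a microtubule destabilizer of dividing cells, was at 148.5, 207 and 141 CPM in controls and at 326, 225 and 669 with lymphoma (1.30 ± 0.38, adjusted p = 0.182). Gins2, a subunit of the replicative helicase, was at 12.02, 21.4 and 16.8 and at 38.5, 28.5 and 96.7 (1.70 ± 0.51, adjusted p = 0.187). Mcm3, another helicase subunit, was at 90.1, 99.7 and 87.2 and at 137, 116.5 and 281 (0.95 ± 0.29, adjusted p = 0.19). In all 3 genes KO lymphoma 3 was highest and KO lymphoma 2 was nearest to the controls.

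None of the 32 mitosis genes separated the groups, although all 32 differences were positive, 16 had an unadjusted p under 0.05 and the median was 1.06. Cdk1, the kinase that drives entry into mitosis, was at 19.3, 45.1 and 22.1 CPM in controls and at 49.2, 27.95 and 162 with lymphoma (1.47 ± 0.61, adjusted p = 0.295). Plk1, a kinase of the spindle, was at 21.2, 53.2 and 27.1 and at 53, 26.5 and 200.3 (1.46 ± 0.66, adjusted p = 0.326). KO control 2 was above KO lymphoma 2 in both genes. The mitosis genes summed to 492, 1116 and 561 CPM in controls and to 1122, 692 and 2405 with lymphoma. Of 18 erythroid genes, 9 differences were positive and 9 negative (median -0.27), with 0 higher and 2 lower without overlap (all genes 9.56% and 9.72%). Their mean log2 CPM was 4.34, 6.86 and 5.68 in controls and 5.34, 4.01 and 6.06 with lymphoma. It was highest in KO control 2 and next in KO lymphoma 3. In KO lymphoma 3, 8 of the 18 (44.4%) were above all controls and 5 (27.8%) below. Of all genes in that library, 37% were above and 41.9% below, so the share above was near the background. Hbb-bs, adult beta globin, was at 1827, 12680 and 7108 CPM in controls and at 2201, 790 and 1014 with lymphoma, so in KO lymphoma 3 it did not follow the list. Whether red cell precursors take part in the mitosis values was not tested. Without KO lymphoma 3 the S phase median was 0.32 and the mitosis median 0.34. Without KO lymphoma 2, 9 S phase and 3 mitosis genes were called higher. Without KO lymphoma 3 none was called. In CD8 KO libraries 4 S phase and 2 mitosis genes rose (medians 0.94 and 1.53). In CD4 WT libraries none passed, with medians of 1.01 and 1.64, beside 0.94 and 1.06 in CD4 KO libraries.

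Targets of p53 and genes of the DNA damage response, the pathways that Atm serves, were examined in these mice without Atm. Of 28 p53 targets, 3 were higher and 5 lower without overlap and the median was 0.03. Over all genes, 9.56% were higher and 9.72% lower without overlap. Cdkn1a, which encodes the cell cycle inhibitor p21, was at 4.40, 3.31 and 2.44 CPM in controls and at 10.03, 7.57 and 8.31 with lymphoma (1.34 ± 0.36, adjusted p = 0.16). Its difference in WT mice was 2.78 (adjusted p = 0.00954). Whether KO and WT mice differ in this is a question for the interaction, in which no gene passed in edgeR. Aen, an apoptosis-enhancing nuclease, stood at 50.9, 50.3 and 49.95 and at 62.6, 68.3 and 67.3 (0.39 ± 0.10, adjusted p = 0.16). Sesn1, a sestrin that restrains mTORC1, stood the other way at 44.9, 54.2 and 50.7 and at 37.8, 22.7 and 24.3 (-0.82 ± 0.21, adjusted p = 0.159). Of 34 checkpoint and repair genes, 1 was without overlap (Rnf168, a ubiquitin ligase at breaks, 0.17 ± 0.14, adjusted p = 0.577) and the median was 0.13.

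All 20 pan-T cell genes had a negative difference (median -0.43), 8 at an unadjusted p under 0.05 and 7 without overlap. Ptprcap, which binds the phosphatase CD45, was at 173, 154 and 169 CPM in controls and at 97.5, 98.4 and 119 with lymphoma (-0.66 ± 0.14, adjusted p = 0.109). Zap70, the kinase that starts signalling at the T cell receptor, was at 63.8, 61.3 and 61.5 and at 37.7, 50.8 and 35.5 (-0.59 ± 0.14, adjusted p = 0.136). Bcl11b, a factor that holds T cell identity, was at 848, 766 and 914 and at 551, 683.5 and 375 (-0.65 ± 0.20, adjusted p = 0.19). Cd3e, a chain of the T cell receptor complex, overlapped, at 172, 174 and 164 and at 134, 199 and 73.5 (-0.33 ± 0.27, adjusted p = 0.598), with KO lymphoma 2 above every control. Of the 20 genes, 19 were below all controls in KO lymphoma 1, 8 in KO lymphoma 2 and 20 in KO lymphoma 3, beside 33.3%, 31.4% and 41.9% of all genes. The share in KO lymphoma 2 (40%) was thus near its background. Their summed level was 5001, 4461 and 4744 CPM in controls and 3371, 4608 and 2352 with lymphoma. In these bulk libraries fewer cells of a type and less RNA per cell cannot be told apart. Without KO lymphoma 2, 7 of the 20 were called lower (median -0.67), and without KO lymphoma 3 none was (median -0.22).

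Of 10 CD4 lineage genes, 4 were lower without overlap (median -0.50). Zbtb7b, which directs thymocytes to the CD4 fate, was at 76.9, 79.7 and 89.7 CPM in controls and at 60.9, 48.02 and 56.4 with lymphoma (-0.58 ± 0.16, adjusted p = 0.175). Izumo1r, the folate receptor 4 of regulatory and anergic T cells, was at 102, 83.97 and 93.5 and at 57.8, 57.1 and 67.8 (-0.62 ± 0.17, adjusted p = 0.168). Cd4 itself differed by -0.53 ± 0.16 (adjusted p = 0.175). Each of the 3 genes had every lymphoma library below every control.

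Genes of naive and resting T cells were all lower in the mean (22 of 22, median -0.46), with 9 at an unadjusted p under 0.05 and 10 without overlap. Without KO lymphoma 3 the median was -0.23. Tsc22d3, the glucocorticoid-induced leucine zipper, was at 184, 169 and 173 CPM in controls and at 103, 126 and 88.6 with lymphoma (-0.73 ± 0.21, adjusted p = 0.175). Klf2, the factor that keeps T cells quiescent and circulating, was at 344, 305 and 279 and at 220.4, 244 and 144 (-0.61 ± 0.23, adjusted p = 0.252). S1pr1, a Klf2 target and the receptor for exit from lymphoid organs, was at 233, 263 and 251 and at 196, 198.5 and 110 (-0.57 ± 0.22, adjusted p = 0.266). KO lymphoma 3 was lowest in all 3. Of the 15 chemokine and lipid migration receptors, 11 were lower without overlap (median -0.46). Ccr6, the receptor for CCL20, was at 20.8, 34.2 and 33.1 and at 11.7, 17.2 and 11.9 (-1.11 ± 0.36, adjusted p = 0.209).

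Effector and cytotoxic genes were lower in 12 of 29 cases without overlap and higher in 2 (median -0.44). Prf1, the pore protein perforin, was at 77.5, 58.9 and 75.2 CPM in controls and at 39.7, 46.5 and 22 with lymphoma (-0.97 ± 0.27, adjusted p = 0.175). Ccl5, a chemokine of memory and cytotoxic T cells, was at 262, 149 and 159 and at 101, 96.4 and 72.3 (-1.08 ± 0.31, adjusted p = 0.175). Eomes, a factor of cytotoxic and memory cells, was at 35.8, 27.7 and 30.5 and at 17.4, 20.8 and 14.2 (-0.84 ± 0.22, adjusted p = 0.16). All 3 genes are also expressed in natural killer cells. Il12rb2, the inducible chain of the interleukin 12 receptor of Th1 cells, was at 2.15, 2.90 and 2.44 and at 0.708, 0.736 and 0.936 (-1.64 ± 0.47, adjusted p = 0.175). Tbx21, which encodes the Th1 factor T-bet, was at 199, 166 and 133 and at 98.1, 116 and 88.7 (-0.72 ± 0.23, adjusted p = 0.198). Effector genes had a median of 0.15 in CD4 WT libraries, where 1 rose and 1 fell.

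Of 14 follicular helper genes, 2 were higher and 3 lower without overlap (median -0.02), and of 17 regulatory T cell genes 2 were higher and 5 lower (median -0.18). These counts stand beside 9.56% of all genes higher and 9.72% lower without overlap. Il21, the cytokine of follicular helper cells, was at 3.62, 1.45 and 3.22 CPM in controls and at 6.37, 7.25 and 7.02 with lymphoma (1.31 ± 0.35, adjusted p = 0.16). It rose in WT (2.21, adjusted p = 0.0169), and it did not pass the interaction in edgeR. Il10, which encodes an anti-inflammatory cytokine, was at 1.07, 0.310 and 0.444 and at 2.71, 1.47 and 4.80 (2.25 ± 0.67, adjusted p = 0.175), levels of few counts. Foxp3, the factor of regulatory T cells, was at 22.4, 24.0 and 23.9 and at 16.9, 20.3 and 18.3 (-0.34 ± 0.15, adjusted p = 0.307). Btla, an inhibitory receptor of B and T cells, was at 51.5, 53.3 and 61.6 and at 35.6, 41.8 and 20.4 (-0.76 ± 0.22, adjusted p = 0.175).

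Of 22 glycolysis and lactate transport genes, 6 were higher and 1 lower without overlap (median 0.27), beside 9.56% and 9.72% of all genes. Hk2, the inducible hexokinase, was at 15.4, 19.5 and 15.8 CPM in controls and at 44.9, 20.7 and 50.8 with lymphoma (1.20 ± 0.35, adjusted p = 0.176). Hspd1, the mitochondrial chaperonin, was at 725, 821 and 716 and at 1075, 1024 and 1419 (0.64 ± 0.17, adjusted p = 0.16). Hspa5, the main chaperone of the endoplasmic reticulum, was at 1040, 1019 and 991 and at 1306, 1449 and 1331 (0.42 ± 0.12, adjusted p = 0.175). Hk2 was high in KO lymphoma 1 and 3 and near the controls in KO lymphoma 2, whereas Hspd1 and Hspa5 were higher in all 3. Their lists were mixed. In the chaperone list that holds Hspd1, 12 of 17 differences were positive and 5 negative, with 4 higher without overlap (median 0.18). Among 20 endoplasmic reticulum chaperone and stress genes, 12 were positive and 8 negative, with 3 higher without overlap (median 0.17). Of 77 ribosomal protein genes, 1 was higher and 5 lower without overlap (median -0.05), beside the same shares of all genes.

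**Figure D3:**
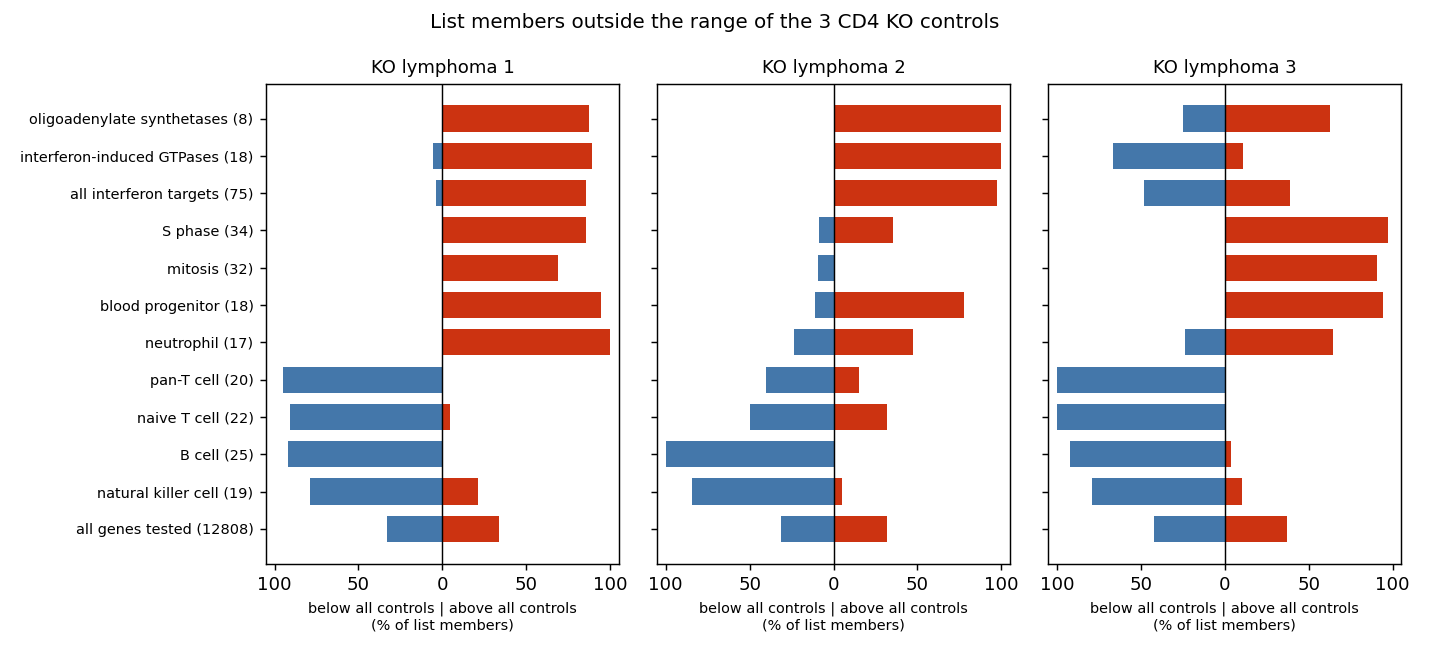
Share of each list's tested members that lie above (red, right) or below (blue, left) all 3 CD4 KO control libraries, in percent, for each CD4 KO lymphoma library; numbers of genes are in brackets. In KO lymphoma 3 48% of interferon targets (41.9% of all genes) are below all controls and 97.1% of S phase genes (37% of all genes) above, while in KO lymphoma 2 97.3% of interferon targets and none of the mitosis genes are above.

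Markers of other cell types were read as lists, and none of their genes passed over all genes. Of 25 B cell genes, 22 were lower at an unadjusted p under 0.05 and 23 without overlap, with a median of -2.32. Ms4a1, which encodes CD20, was at 81.5, 82.7 and 103 CPM in controls and at 15.8, 9.25 and 5.50 with lymphoma (-3.13 ± 0.91, adjusted p = 0.176). Blk, a tyrosine kinase of B cells, was at 6.55, 6.93 and 8.21 and at 1.42, 0.420 and 0.351 (-3.30 ± 0.69, adjusted p = 0.106). The B cell genes summed to 1090, 1335 and 1406 CPM in controls and to 451.5, 347 and 406 with lymphoma, so every lymphoma library was below every control. All 10 MHC class II genes were lower without overlap (median -1.89), among them H2-Ob, a regulator of peptide loading in B cells, at 41.8, 53.05 and 60.2 and at 15.1, 18.8 and 9.13 (-1.85 ± 0.34, adjusted p = 0.0918).

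In CD8 KO libraries the B cell median was positive (1.32), and Ms4a1 was at 20.6, 25.9 and 34.5 CPM in controls and at 195, 38.6 and 2.10 with lymphoma, highest in KO lymphoma 1. The test of the difference between the CD8 and CD4 responses called no gene, with 628 at an unadjusted p under 0.05 and 4 called by DESeq2. The CD8 and CD4 libraries come from the same mouse pools, and with the pool as a block 25 genes were called, all higher in the CD8 response. Among them, named after their values were seen, were the B cell genes Cd79b (3.21 ± 0.51, adjusted p = 0.04) and Ly6d (3.61 ± 0.56, adjusted p = 0.04) and the MHC class II genes Ciita (2.92 ± 0.37, adjusted p = 0.0062) and H2-Aa (2.32 ± 0.39, adjusted p = 0.0439). With the B cell score as a covariate, the median of natural killer cell genes was -0.23 (-1.02 without it), that of oligoadenylate synthetases 0.52 (1.02) and that of mitosis genes 0.63 (1.06). The B cell genes make up the score, so their own median in that fit says nothing. Their mean log2 CPM was 5.09, 5.38 and 5.47 in KO controls and 3.56, 2.93 and 3.00 with lymphoma. The covariate thus moves with the group and takes up part of any group difference. In that fit B cell RNA and lymphoma cannot be told apart.

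Natural killer cell genes were lower in 15 of 19 cases without overlap and higher in 1 (median -1.02). Klrb1c, which encodes NK1.1, was at 98.4, 67.5 and 82.9 CPM in controls and at 35.8, 39.7 and 28.4 with lymphoma (-1.26 ± 0.33, adjusted p = 0.16). Ncr1, the receptor NKp46, was at 21.8, 18.8 and 19.7 and at 13.3, 7.78 and 7.25 (-1.09 ± 0.38, adjusted p = 0.226). The genes summed to 1016, 830 and 947 in controls and to 622.5, 521.5 and 396 with lymphoma. Prf1 and Eomes are on this list and on the effector list, so they are counted in each. The part of natural killer cell RNA in the lower Prf1, Eomes, Ccl5 and Fasl was not tested.

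Of 18 progenitor genes, all had a positive difference (median 1.91), 15 at an unadjusted p under 0.05 and 14 without overlap. Cd34, the progenitor sialomucin, was at 1.17, 1.86 and 1.55 CPM in controls and at 11.9, 5.04 and 27.7 with lymphoma (3.27 ± 0.68, adjusted p = 0.11). Muc13, a transmembrane mucin, was at 3.52, 2.69 and 2.78 and at 14.3, 8.41 and 24.7 (2.39 ± 0.44, adjusted p = 0.0918). Meis1, a homeobox factor of stem cells, was at 2.35, 2.69 and 1.89 and at 10.3, 5.46 and 13.5 (2.07 ± 0.43, adjusted p = 0.106). KO lymphoma 3 was the highest and KO lymphoma 2 the lowest of the lymphoma libraries in each. In CD4 WT libraries 10 progenitor genes rose (median 3.05), and in CD8 KO libraries 2 did.

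Of 17 neutrophil genes, 8 were higher without overlap (median 1.05). Mpo, myeloperoxidase, was at 4.79, 12.2 and 8.88 CPM in controls and at 62.6, 24.5 and 324 with lymphoma (3.99 ± 0.95, adjusted p = 0.142). S100a8, which mature neutrophils express most, overlapped, at 81.1, 80.4 and 93.0 and at 328, 88.3 and 108 (1.04 ± 0.63, adjusted p = 0.455). Prss34 and Mcpt8, proteases of mast cells and basophils, differed by 4.10 ± 0.90 (adjusted p = 0.13) and 3.62 ± 0.75 (adjusted p = 0.112). Of 14 platelet and megakaryocyte genes, 4 were higher without overlap (median 0.87), among them Itga2b, the platelet integrin chain, at 66.6, 35.05 and 33.5 and at 125.5, 114 and 89.8 (1.28 ± 0.26, adjusted p = 0.106). Of 26 monocyte and macrophage genes, 21 differences were positive and 5 negative, and 8 were higher without overlap (median 0.28). Among them Lyz2, the lysozyme of these cells, was at 511, 386 and 496 and at 1250, 847 and 695 (1.003 ± 0.36, adjusted p = 0.235). The part of these cells in the higher Nampt, Hp, Ms4a6c, Ms4a6d and Fpr2 and in the S phase and mitosis values was not tested.

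Without KO lymphoma 2, 13 of 18 progenitor, 7 of 17 neutrophil and 4 of 8 mast cell and basophil genes were called higher. Without KO lymphoma 3 none of these was called, and the progenitor median was 1.36. In the fit without KO lymphoma 2, the largest called difference was that of Nphs1, which encodes nephrin (-5.25 ± 1.14, adjusted p = 0.0387). Next in that fit were Podxl, which encodes the sialomucin podocalyxin (4.73 ± 0.90, adjusted p = 0.0344), and Prss34 (4.63 ± 0.77, adjusted p = 0.0326). Nphs1 was at 5.67, 6.51 and 2.997 CPM in controls and at 0.236, 3.68 and 0 with lymphoma. Podxl was at 0.391, 0.827 and 0.333 and at 2.24, 0.630 and 25.3, so its value rests on KO lymphoma 3. The calls without KO lymphoma 2 and those without KO lymphoma 3 had 10 genes in common.

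**Figure D4:**
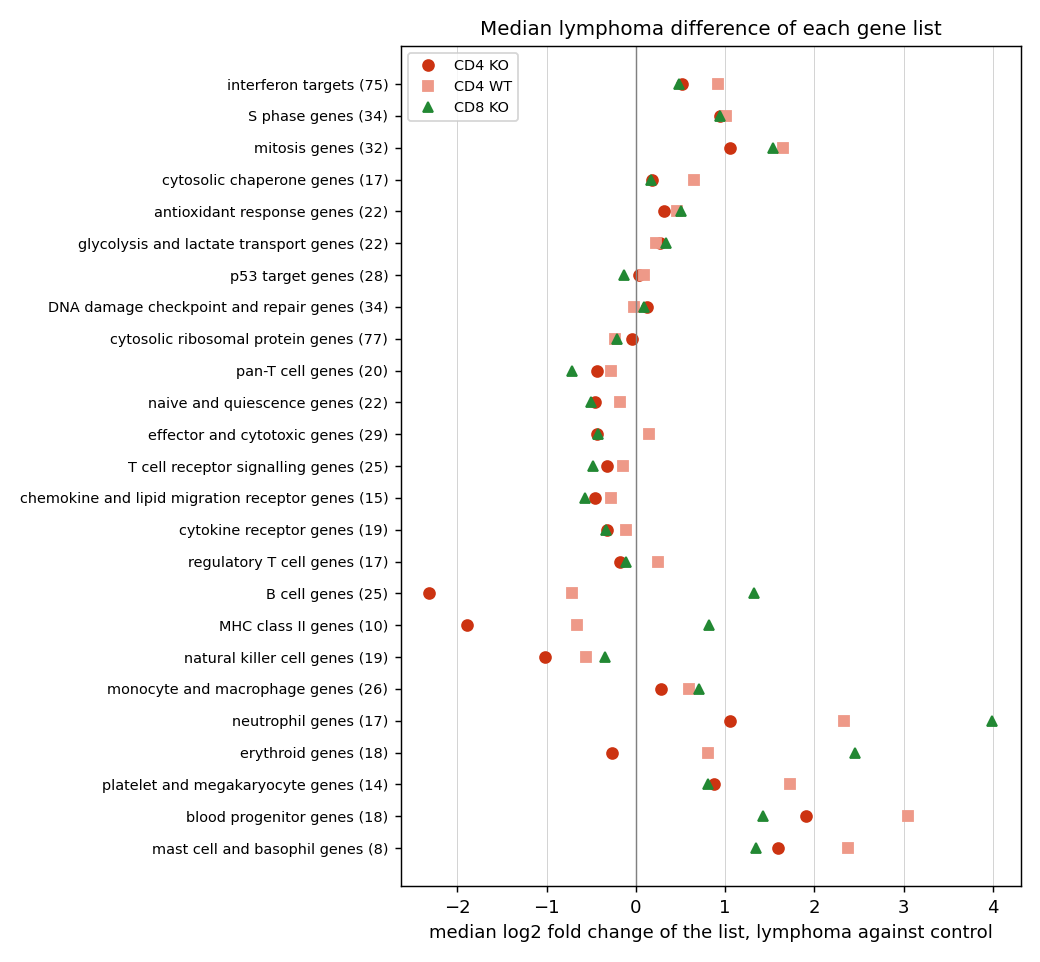
Median log2 difference of each list's tested members, lymphoma against control, in CD4 KO (circles), CD4 WT (squares) and CD8 KO libraries (triangles); numbers of CD4 genes are in brackets. B cell genes stand at -2.32 in CD4 KO, -0.71 in CD4 WT and 1.32 in CD8 KO libraries, and progenitor genes are positive in all 3.

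Whether the KO response differs from the WT response was tested by the interaction over the 12 CD4 libraries. No gene passed (0% higher and 0% lower), with 466 at an unadjusted p under 0.05 (145 higher and 321 lower) and 1 called by DESeq2. The same comparison in WT libraries called 216 genes, 207 higher and 9 lower. It set lymphoma libraries of single mice against pooled controls. The part of pool size in the WT comparison and in the interaction was not tested. Oas1a was at 8.29, 8.71 and 5.47 CPM in WT controls and at 22.1, 35.7 and 38.02 in WT lymphoma libraries, a WT difference of 2.08 (adjusted p = 0.00311). The WT controls were all below the KO controls, and the WT lymphoma libraries were all below the KO lymphoma libraries. Its interaction was -0.93 ± 0.31 (adjusted p = 1). In WT libraries Sipa1, at 79.0, 76.8 and 82.4 in WT controls and 73.5, 59.1 and 69.8 in WT lymphoma libraries, had an interaction of -0.57 ± 0.17 (adjusted p = 1). In WT libraries Nampt, at 71.96, 71.1 and 72.1 and at 130.2, 132 and 141, had an interaction of -0.15 ± 0.15 (adjusted p = 1). A p of this kind does not show that the genotypes respond alike.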

How the data were processed

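The deposited table holds estimated counts per mouse gene symbol and library. Salmon 0.11.3 and the human build GRCh38 are named per the submitters' processing notes, with no role given; the build behind the mouse symbols is not stated. The kit (QuantSeq) reads 3′ ends, per the labels' protocols, so levels are not compared between genes. All numeric values were whole. Of 34113 genes, 2 held a non-numeric cell and were dropped.

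In edgeR 4.0.16, filterByExpr (at least 10 counts, and 15 in total) chose the genes, TMM scaled the libraries, and differences were tested with the robust quasi-likelihood test on the 12 CD4 libraries (8 residual degrees of freedom), with Benjamini-Hochberg adjustment at 0.05. The CD8 comparison used the 12 CD8 libraries and the difference between responses all 24. Alternatives used DESeq2 1.42.0, limma 3.58.1 and the settings of the closing section. List scores are mean log2 CPM with a prior count of 2.

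The compared groups, genes and 45 lists were chosen with earlier results of these data known. Named were Atm; the 15 genes with the smallest p in each direction without overlap, with at least 5 CPM in the higher group, leaving out receptor segments, predicted genes and other cell lists; up to 6 members of each list; and up to 10 called genes with the largest difference in the fits without 1 library; and defining genes of cell types. Not all are printed. On simulated counts of this comparison (12808 genes), 37 of 100 genes changed by 2-fold and 79 of 100 by 4-fold were recovered. Promoters were matched by symbol to RefSeq on GRCm38.p6.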

Additional observations from a re-analysis of the deposited data

Results flagged for a closer look

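The difference between the CD8 and CD4 responses to lymphoma in KO mice stood out because an alternative test of it called genes that the main test did not. With the mouse pool as a block, 25 genes were called by edgeR's quasi-likelihood test, all with a higher response in CD8 libraries. In the main test, which had no block, none was (smallest adjusted p = 0.473). The pairing comes from the labels, since the CD8 and CD4 libraries of a number are from the same mice. Named after their values were seen, Chst3, a sulfotransferase gene (3.83 ± 0.66, adjusted p = 0.0401), was among the genes called with the block. The smallest adjusted p in that fit was that of the pseudogene Rps16-ps2 (19.66 ± 0.89, adjusted p = 0.00327). B cell RNA in CD8 KO lymphoma 1 and in the CD4 KO controls moves with this result, and its part was not tested.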

How the results depend on the processing

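For the main comparison, where edgeR called 0 genes, no filter on low counts gave 27, DESeq2 343, limma voom 703, the 6 libraries alone 17, and all 24 libraries in one fit 20. Leaving out 1 library gave 0 to 501. It stayed at 0 with DESeq2 size factors, the stricter filter, no robust option, either B covariate and the replicate block; numbers do not pair these pools (correlations -0.158, -0.153 and 0.016). The cause of these differences was not tested. The interaction, at 0, gave 1 with DESeq2 and 0 to 1 without 1 library. The WT comparison, at 216, gave 678 with DESeq2, 380 with its 6 libraries alone and 31 to 294 without 1 library. The CD8 comparison, at 276, gave 416 with the stricter filter, 1499 with DESeq2, 481 with voom, 443 with the B identifier covariate, 25 with the replicate block, 629 with all 24 libraries and 0 to 1861 without 1 library. The difference between CD8 and CD4, at 0, gave 4 with DESeq2 and 25 with the mouse pool as replicate block.

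Across the alternatives of the main comparison, 33 list medians changed sign, in 12 lists. Among printed ones, follicular helper genes ran from -0.11 to 0.22, p53 targets from -0.07 to 0.09, erythroid genes from -1.01 to 0.44, ribosomal protein genes from -0.32 to 0.015 and interferon signalling genes reached 0.06 with voom. Single libraries also moved medians by over 1.5 times. Without KO lymphoma 3, CD4 lineage genes were at -0.30, glycolysis genes at 0.06 and checkpoint and repair genes at 0.03. Without KO lymphoma 2, other interferon targets were at 0.33 and regulatory T cell genes at -0.05. Without KO control 1, effector genes were at -0.27 and platelet genes at 1.34. With the B cell score, which itself moves with the group, Ifit genes were at 0.49, GTPases at 0.23, migration receptors at -0.27 and neutrophil genes at 2.09.

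For single genes named here, these directions turned. With voom, Rsad2 was at 0.169 and Cd8a at -0.332. With the B identifier covariate Rsad2 was at 0.792, and with the B cell score Rsad2 was at 0.564, Hbb-bs at 0.289, H2-Aa at 0.175 and Ncr1 at 0.036. Without 1 library each in turn, Rsad2 ran from -0.833 to 0.466, Cd8a from -0.74 to 0.829 and Atm from -0.793 to 0.045. With 3 pools a group, 37 of 100 simulated 2-fold changes were recovered.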
